A study of Homo sapiens with 4 samples.

Results

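Ribosome biogenesis takes place largely in the nucleolus. RNA polymerase I copies the ribosomal DNA into a long precursor, which small nucleolar ribonucleoproteins (snoRNPs) modify and which separate sets of assembly factors cut and fold into the small and the large ribosomal subunit. Dividing cells, tumour cells among them, make many ribosomes, and the transcription factor MYC is known to drive many of the genes involved. Here 42 such genes were followed in melanoma cells exposed to an inhibitor of p300: subunits and cofactors of RNA polymerase I, snoRNP proteins, abundant nucleolar proteins, and factors of the small and the large subunit pathway. The genes were listed by name and role, by a rule that uses no array value, although earlier results of these arrays were known when the list was made.

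WM35 cells are a human line of radial growth phase melanoma, and C646 is a compound that blocks the acetyltransferase activity of p300 and of its relative CBP. The study asked how transcription changes when p300 activity is blocked. There were 4 groups with 1 exon array each: DMSO (0.2%) for 6 h, C646 (20 µM) for 6 h, DMSO for 24 h and C646 for 24 h. All used WM35 in DMEM with fetal bovine serum, and equal amounts of RNA were labelled. Differences between arrays therefore have no replicate check. Values are log2 expression values per probe set, a group of probes that reads the exons of a gene. Ribosomal RNA itself was not measured, and in a bulk sample fewer cells with a transcript and less of it per cell cannot be told apart.

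Of the 42 genes, 32 had a probe set annotated to them alone, and all 32 passed the filter on low values (a mean over the 4 arrays of at least 3.96). NCL, NOP58, DKC1, WDR43, RRN3 and MYBBP1A were listed only on probe sets that name further genes, and they carry no value of their own here. GNL3, BOP1, DDX18 and EBNA1BP2 were matched to no probe set. The 13 probe sets that name a gene of the list together with others ran from -0.21 to 0.36 (C646 minus DMSO, log2) at 6 h and from -0.83 to 0.43 at 24 h. Of these 13, 4 lay below vehicle at 6 h (median 0.072), against 50.6% of all probe sets that passed the filter. At 24 h 4 did so (median 0.095), against 45.0%. Some of the 13 name the same gene, RRN3 or NPM1.

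For 3 of the 32 genes the probe set with the highest mean is numbered away from the gene. Probe sets of this array are numbered along the chromosomes, and the NOP56 probe set (2947502) lies among 20 neighbours that all belong to chromosome 6, whereas NOP56 is on chromosome 20. The DDX10 probe set lies among genes of chromosome 9 instead of 11, and the NPM1 probe set lies on chromosome 5 but away from NPM1. Which transcript these 3 probe sets read was not tested, and the main counts are given with and without them.

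The arrays were on a common scale, with medians between 4.39 and 4.41. Correlations over all probe sets were 0.991 to 0.996 among 3 arrays and 0.975 to 0.979 between these and C646 at 24 h. The melanocyte genes PMEL, MLANA, MITF, SOX10, S100B and TYRP1 were read at 6.06 to 11.0 on every array, TYRP1 on a probe set numbered away from its gene. All 6 lay above their vehicle at 24 h (median 0.57) and 5 of the 6 at 6 h (median 0.45), and the part of this in the results below was not tested. Of markers of keratinocytes, fibroblasts, leukocytes and endothelium, KRT14, KRT1, COL1A2, COL3A1, DCN, PTPRC, CD3E, CD14, PECAM1, VWF and CDH5 were below the filter, and KRT10, COL1A1, LUM and CD68 were above it.

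Promoter sequence is shown first, since many of the listed genes hold a motif there that the rule for the list does not name. The motif CACGTG is the E-box, which reads the same on both strands and is bound by MYC with its partner MAX. In windows of 300 bases, from 250 before to 50 after each annotated start (RefSeq, GRCh38.p14), 15 of the 33 listed genes with a promoter in the table held it (45.5%). It stood in 8.77% of all 27305 genes of the table and in 12.8% of the 8664 genes that were measured here and had a promoter entry. A list of other pathway genes held it in 27 of 95 (28.4%), and cytosolic ribosomal proteins in 5 of 68 (7.35%). These shares are a description of letters in a window, with no test.

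The windows of 30 bases below hold the E-box in capitals. DDX21, NOP14, FBL and UTP18 are the 4 measured genes with this motif that lay lowest against vehicle at 24 h (-0.44, -0.33, -0.31 and -0.25). RRP9, LYAR, UTP20 and NAT10, at -0.22, -0.072, -0.041 and -0.017, are the other measured genes with the motif before the start. BYSL, NOP2 and PES1 hold it after the start, were at -0.14, -0.027 and 0.098, and are not shown. All windows are written 5′ to 3′ along the gene's strand.
DDX21, chr10:68956604-68956633, plus strand: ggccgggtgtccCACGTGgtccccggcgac
NOP14, chr4:2963374-2963403, minus strand: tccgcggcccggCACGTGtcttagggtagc
FBL, chr19:39846356-39846385, minus strand: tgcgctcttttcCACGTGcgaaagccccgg
UTP18, chr17:51260445-51260474, plus strand: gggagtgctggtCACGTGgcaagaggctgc
RRP9, chr3:51941892-51941921, minus strand: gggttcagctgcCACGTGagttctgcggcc
LYAR, chr4:4290068-4290097, minus strand: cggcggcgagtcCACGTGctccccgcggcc
UTP20, chr12:101280083-101280112, plus strand: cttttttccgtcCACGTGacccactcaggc
NAT10, chr11:34105602-34105631, plus strand: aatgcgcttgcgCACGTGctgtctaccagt
Counted from the start used in the RefSeq table, the motif began 5 bases before it in RRP9, 10 in UTP20, 15 in NAT10, 31 in DDX21, 64 in LYAR and 89 in UTP18, and after the start in NOP14 and FBL. UTP18 also held a further copy after its start.

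The genes with and without an E-box in the window overlapped in their response. The 11 measured genes with CACGTG had a median C646 minus DMSO difference of 0.014 at 6 h and -0.14 at 24 h, running from -0.44 to 0.098 at 24 h. The 15 measured genes with a promoter entry but no CACGTG had medians of 0.046 and -0.017, running from -1.33 to 0.20. Both ends, NOP56 and DDX10, are probe sets numbered away from their genes. With probe sets in their own place, the 14 genes without CACGTG had medians of 0.056 and 0.0068, running from -0.46 to 0.15 at 24 h, and the 11 with it were as before. TCOF1, POLR1E, NOLC1, RRP1B, RRP12 and RRS1 had no promoter entry and are in neither group. At 24 h they were at -0.93, -0.52, -0.51, -0.46, -0.18 and 0.022. The medians of the 2 groups therefore leave out several of the genes that lay lowest.

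A second motif, TGACG, is the core of the cyclic AMP response element and was searched on both strands. It was in 15 of the 33 listed genes (45.5%), against 28.4% of all genes of the table. Among measured genes it was in 13 of 26 listed genes (50%), against 40.5% of the genes measured here. It is shown for UBTF and POLR1A, since UBTF was lower and POLR1A higher than vehicle under C646 at both times. The 250 bases before the annotated start are printed along the gene's strand, with TGACG or its reverse CGTCA in capitals. For UBTF, the start that lies farthest upstream was taken. Neither stretch holds CACGTG.
UBTF, chr17:44220883-44221132, minus strand: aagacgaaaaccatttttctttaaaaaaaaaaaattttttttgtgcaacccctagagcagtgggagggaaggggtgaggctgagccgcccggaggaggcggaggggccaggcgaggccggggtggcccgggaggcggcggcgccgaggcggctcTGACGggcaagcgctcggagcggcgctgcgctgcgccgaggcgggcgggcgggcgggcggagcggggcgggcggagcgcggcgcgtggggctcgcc
POLR1A, chr2:86105887-86106136, minus strand: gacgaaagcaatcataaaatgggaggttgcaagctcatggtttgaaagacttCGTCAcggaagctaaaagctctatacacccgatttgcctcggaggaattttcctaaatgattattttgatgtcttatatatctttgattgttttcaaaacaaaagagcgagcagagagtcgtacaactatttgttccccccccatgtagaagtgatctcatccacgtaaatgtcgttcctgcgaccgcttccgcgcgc

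After 24 h of C646, 23 of the 32 genes lay below their vehicle array, against 45.0% of all 16579 probe sets kept. The median difference over the 32 genes was -0.12, and it was 0.030 over all kept probe sets. With probe sets in their own place, 22 of 31 lay below vehicle and the median was -0.072. After 6 h, 15 of the 32 lay below vehicle, against 50.6% of all probe sets, with a median of 0.019 beside -0.0024, and 13 of 31 did so (median 0.026) with probe sets in their own place. The differences were small at 6 h, from -0.31 for UBTF to 0.27 for POLR1B. At 24 h they ran from -0.93 for TCOF1 to 0.15 for POLR1A among genes read by a probe set in its own place.

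**Figure D1:**
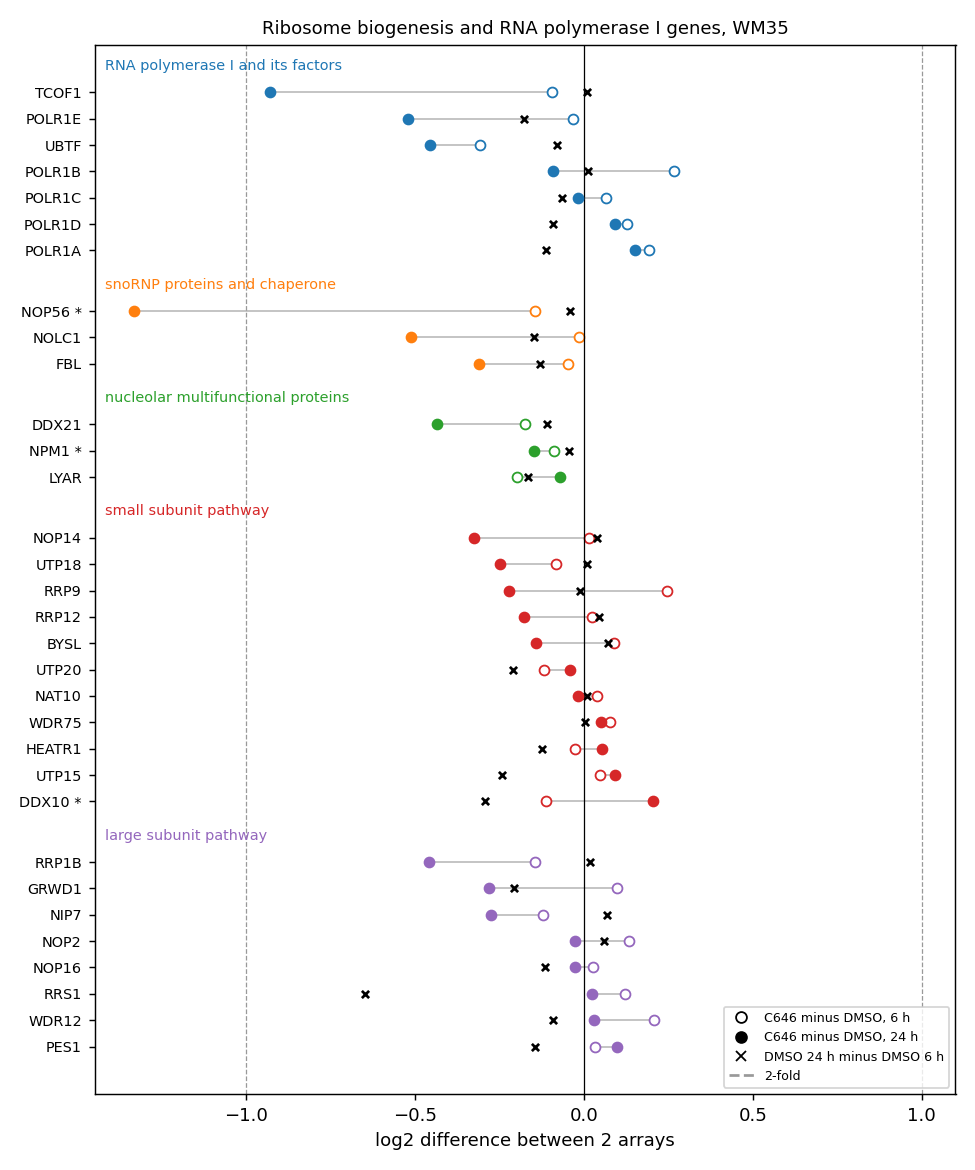
Log2 differences of the 32 measured genes, grouped by role, with C646 minus DMSO at 6 h (open circles) and 24 h (filled circles) and the vehicle difference between the times (crosses). Each point compares 2 arrays, dashed lines mark 2-fold, and a star marks a gene whose probe set is numbered away from it. Most filled circles lie left of 0, and the probe set listed for NOP56 at -1.33 and TCOF1 at -0.93 lie farthest left.

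No gene reached 2-fold at 6 h in either direction, against 0.115% of all probe sets lower and 0.127% higher. At 24 h the NOP56 probe set was 2.52-fold lower and no gene was 2-fold higher, against 2.50% and 1.14% of all probe sets. The NOP56 probe set and TCOF1 were at least 1.5-fold lower, against 5.34%. With probe sets in their own place there were 31 genes, none of them 2-fold different.

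The 24 h C646 array was the lowest of the 4 in 22 of the 32 genes (68.8%) and the highest in none, where 30.3% of all kept probe sets had it lowest and 37.9% highest. With probe sets in their own place it was lowest in 21 of 31 and again highest in none. The vehicle also moved: DMSO at 24 h was below DMSO at 6 h in 21 of the 32 genes, against 54.8% of all probe sets, with a median of -0.085 beside -0.014. With probe sets in their own place this held for 20 of 31, with a median of -0.091. None of the 32 was 2-fold lower (against 0.0905%), and RRS1 was the only one at least 1.5-fold lower (against 0.609%). Both C646 arrays lay below both DMSO arrays in 9 genes (28.1%, against 21.4% of all probe sets) and above them in 2 (6.25%, against 25.7%). With probe sets in their own place it was 7 of 31 below, near the share of all probe sets, and 2 above.

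Other genes of the pathway were counted in the same way. The 24 h array under C646 was lowest in 21 of 35 other small subunit factors, in 18 of 36 other large subunit factors, in 5 of 11 other snoRNP proteins, in 3 of 7 other RNA polymerase I genes, in 4 of 12 exosome genes and in 18 of 69 cytosolic ribosomal proteins. It was highest in 6, 6, 2, 3, 4 and 15 of them. Many of the ribosomal protein probe sets were numbered away from their genes. These other lists were not recounted with probe sets in their own place. The lists were not tested against each other.

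**Figure D2:**
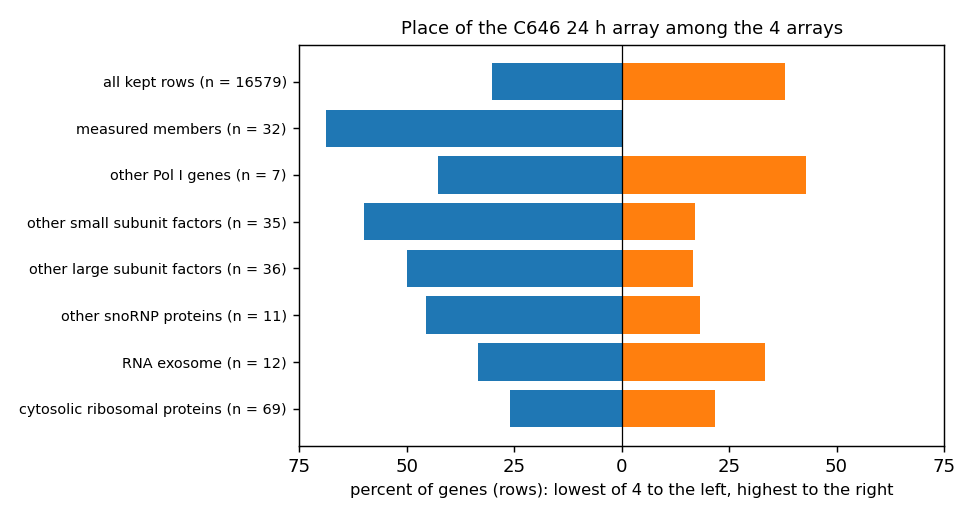
Percent of genes in each list (of probe sets for all kept rows) in which the C646 array of 24 h was the lowest of the 4 arrays (bars to the left) or the highest (bars to the right). Probe sets numbered away from their genes are included, and they are many among the ribosomal proteins. The bar of the 32 measured genes reaches 68.8% to the left and has no part to the right, and that of all kept rows reaches 30.3% and 37.9%.

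C646 at 24 h could be tested by itself only by taking the DMSO arrays of 6 h and 24 h as the spread of the vehicle. Where a limma p is printed below beside a 24 h difference from vehicle, it belongs to this comparison. The difference between the 2 arrays of 24 h was itself not tested. The estimates of this comparison can differ from it, as for EXOSC8 (-0.97 beside -0.83) and MDM2 (1.66 beside 1.48). In limma, with Benjamini-Hochberg adjustment over all 16579 probe sets, 6 of the 32 genes fell in C646 at 24 h against both DMSO arrays (18.8%, against 6.90% of all probe sets that fell) and none rose (against 6.68%). They were TCOF1, POLR1E, UBTF, NOLC1, RRP1B and the probe set listed for NOP56. An unadjusted limma p under 0.05 was found for 11 of the 32 and for 5315 of the 16579 probe sets, a like share. Of the 29 genes whose probe set lies in its own place, 5 fell. This comparison has 1 residual degree of freedom, takes in the change of the vehicle with time, and without the filter on low values kept 2 of the 6 calls. The limma model of both times, with time as a term, called none of the 32.

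**Figure D3:**
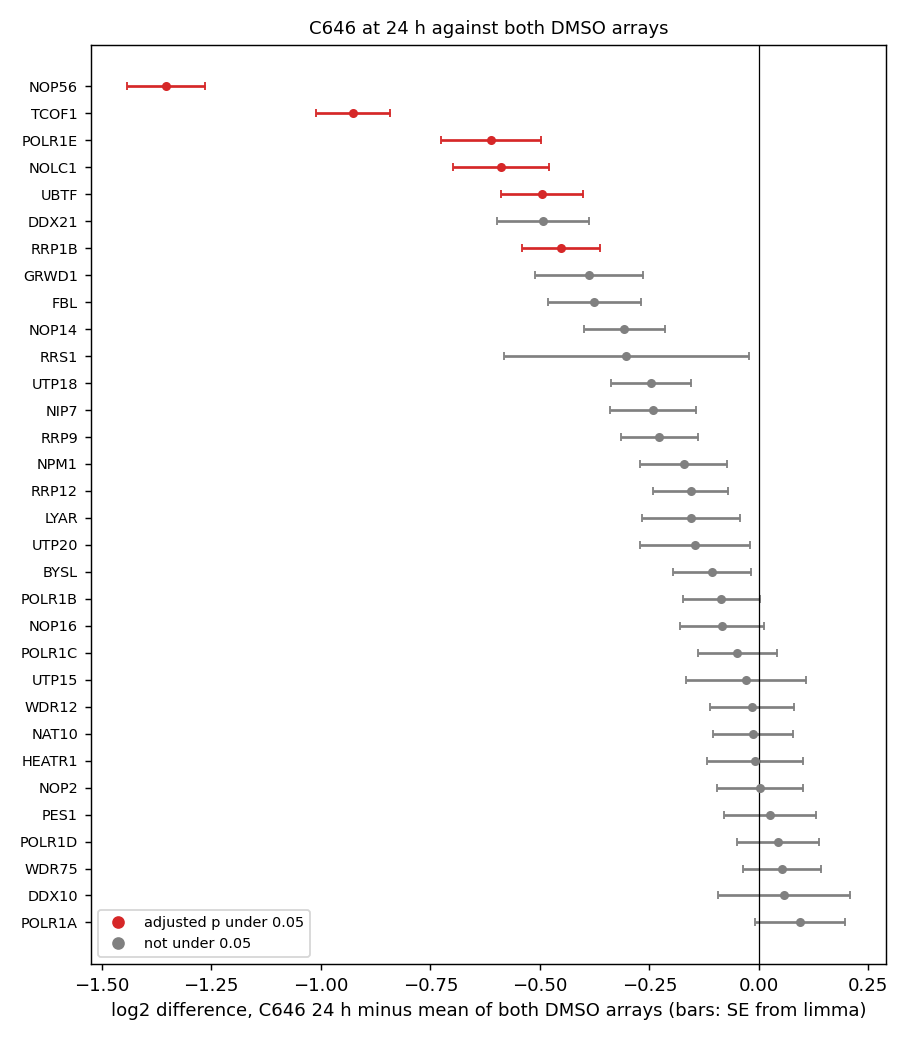
Limma estimates of the 32 genes for C646 at 24 h minus the mean of both DMSO arrays on the log2 scale, with bars of 1 SE. Red points have an adjusted p under 0.05, and the lowest are NOP56 at -1.35 and TCOF1 at -0.93.

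Of 7 measured genes of RNA polymerase I and its factors, 5 lay below vehicle at 24 h, against 45.0% of all probe sets, with a median of -0.092. TCOF1 encodes treacle, a nucleolar protein that recruits RNA polymerase I factors to ribosomal DNA and is mutated in Treacher Collins syndrome. It read 5.85 with DMSO and 5.75 with C646 at 6 h, and 5.86 and 4.93 at 24 h. The 24 h C646 array stood alone below the other 3, which lay within a narrow range, and the difference of -0.93 is 1.91-fold. TCOF1 fell against both DMSO arrays by 0.93 ± 0.085 (SE; limma adjusted p = 0.0091).

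UBTF, the upstream binding factor that opens ribosomal DNA for transcription, was lower at both times. It read 6.80 with DMSO and 6.50 with C646 at 6 h, and 6.73 and 6.27 at 24 h, so the C646 arrays did not overlap the DMSO arrays. The estimate at 24 h was -0.50 ± 0.094 (limma adjusted p = 0.041), and that at 6 h was -0.27 ± 0.095 (limma adjusted p = 0.30). In the model of both times the UBTF estimate was -0.38 ± 0.11 (limma adjusted p = 0.45).

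POLR1E, the subunit known as PAF53, read 6.61 and 6.58 with DMSO and C646 at 6 h, and 6.43 and 5.91 at 24 h. It was at its vehicle's level at 6 h and below every other array at 24 h (-0.61 ± 0.11, limma adjusted p = 0.039). The other measured subunits did not pass the test. POLR1A, the largest subunit, read 7.70 and 7.89 at 6 h and 7.58 and 7.73 at 24 h with DMSO and C646, and both C646 arrays lay above both DMSO arrays. POLR1B, the second largest subunit, was 0.27 higher under C646 at 6 h and at -0.092 at 24 h. POLR1C and POLR1D, which RNA polymerase III also uses, were at 0.065 and 0.13 at 6 h and at -0.017 and 0.091 at 24 h.

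**Figure D4:**
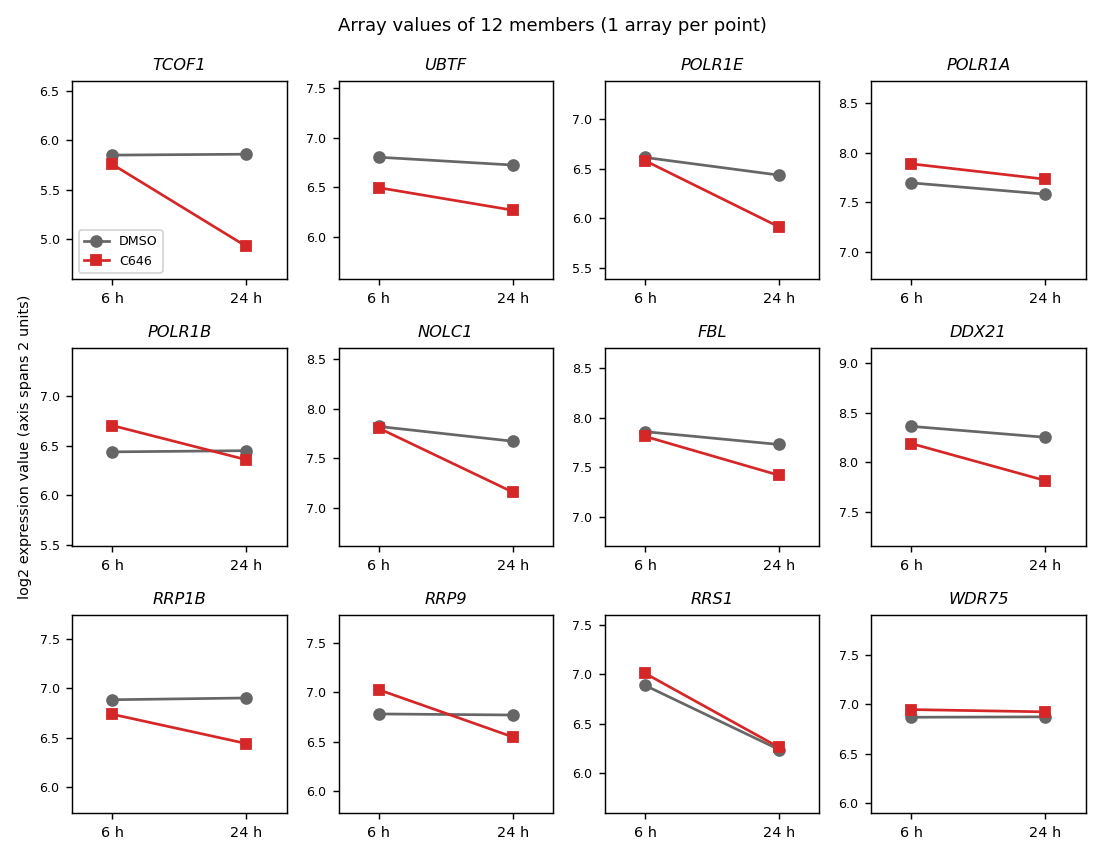
Log2 expression values of 12 listed genes on the 4 arrays, DMSO in grey circles and C646 in red squares, at 6 h and 24 h; each point is 1 array and every vertical axis spans 2 units. TCOF1, POLR1E and NOLC1 part from vehicle at 24 h, UBTF and DDX21 lie below vehicle at both times, and RRS1 drops between the times under either treatment.

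Other RNA polymerase I genes lay on both sides of vehicle. TTF1, the termination factor, was at -0.23 at 6 h and -0.45 at 24 h and fell in limma at 24 h (adjusted p = 0.036). NOL11 was at -0.22 at 24 h, on a probe set numbered on another chromosome. The polymerase subunit gene POLR1F was at 0.29 and BAZ2A, a subunit of a complex that silences ribosomal DNA, at 0.28. Of these 7 genes, 4 lay below vehicle at 24 h, against 45.0% of all probe sets.

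Among snoRNP proteins, NOLC1 and FBL were both lowest on the 24 h C646 array. NOLC1 (Nopp140) is a chaperone of snoRNPs that also binds RNA polymerase I. It read 7.82 and 7.80 with DMSO and C646 at 6 h, and 7.67 and 7.16 at 24 h. Its estimate against both DMSO arrays was -0.59 ± 0.11 (limma adjusted p = 0.040). FBL, fibrillarin, the methyltransferase of the box C/D snoRNPs, read 7.86 and 7.81 at 6 h and 7.73 and 7.42 at 24 h, an estimate of -0.38 ± 0.11 that did not pass (limma adjusted p = 0.092).

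The probe set listed for NOP56, a core protein of the box C/D snoRNPs, read 6.82 and 6.68 at 6 h and 6.78 and 5.45 at 24 h. It fell by 1.35 ± 0.089 (limma adjusted p = 0.0046), the largest difference of the list, but its number places it on chromosome 6. So this value is not taken as the level of NOP56. A probe set that names NOP56 together with other genes lay above vehicle, at 0.36 at 6 h and 0.12 at 24 h. The probe set that names DKC1 with other genes lay below vehicle, at -0.21 and -0.83. The one that names NOP58 with others was at 0.11 and -0.10. None of these shared probe sets is taken as the level of a single gene. The 11 other snoRNP proteins and assembly factors had a median of -0.059 at 24 h, with SHQ1 (-0.17), NUFIP1 (-0.16), PIH1D1 (0.15) and ZNHIT6 (0.20) at the ends. The NUFIP1 probe set is numbered on another chromosome.

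All 3 measured nucleolar proteins of wider function, DDX21, NPM1 and LYAR, had both C646 arrays below both DMSO arrays. DDX21, an RNA helicase that works in RNA polymerase I transcription and in processing, read 8.36 and 8.19 with DMSO and C646 at 6 h, and 8.25 and 7.82 at 24 h. Its estimate of -0.49 ± 0.10 lay just outside the threshold (limma adjusted p = 0.051) and passed in limma under a stricter filter, the 60th percentile (adjusted p = 0.045), or no variance trend (0.044). NPM1, nucleophosmin, was at -0.088 and -0.15 on the probe set with its highest mean. On the NPM1 probe set in its own place it was at 0.036 and -0.027, so the arrays overlapped there. LYAR, a nucleolar zinc finger protein, was at -0.20 and -0.072.

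Factors of the small subunit pathway had a median of -0.041 at 24 h over 11 genes, and none passed in limma. NOP14 was the lowest. It read 7.35 and 7.37 with DMSO and C646 at 6 h, and 7.39 and 7.06 at 24 h, an estimate of -0.31 ± 0.092 (limma adjusted p = 0.10). UTP18, of the small subunit processome, was at -0.25 and RRP12, known for export of precursor subunits, at -0.18 at 24 h, and BYSL, of late small subunit maturation, was at -0.14.

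RRP9, a protein of the U3 snoRNP, changed sides: it read 6.78 and 7.02 with DMSO and C646 at 6 h, and 6.77 and 6.55 at 24 h. Its DMSO arrays lay together, with the C646 arrays above and below them. HEATR1, UTP15 and WDR75, which belong to the subcomplex of the processome tied to ribosomal DNA transcription, were at 0.053, 0.092 and 0.051 at 24 h. A second HEATR1 probe set, also in its own place, was at -0.011 at 24 h. UTP20 was at -0.041 and NAT10, which acetylates 18S ribosomal RNA, at -0.017. DDX10 was at 0.20 on the probe set numbered on chromosome 9 and at 0.066 on the one in its own place. Of 35 other small subunit factors, IMP3 rose (0.53, limma adjusted p = 0.027) and none fell. UTP3 was at 0.34, MPHOSPH10 at -0.22 and NOP9 at -0.44.

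In the large subunit pathway, RRP1B was the only gene that fell. RRP1B, a nucleolar protein that also acts as a cofactor in transcription, read 6.89 and 6.74 with DMSO and C646 at 6 h, and 6.90 and 6.44 at 24 h, with both C646 arrays below both DMSO arrays. Its estimate was -0.45 ± 0.089 (limma adjusted p = 0.044). With quantile normalization the adjusted p was 0.056.

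GRWD1 and NIP7 were at -0.28 at 24 h, and NIP7 had both C646 arrays below both DMSO arrays. PES1 and WDR12, partners in a complex needed for large subunit maturation, were at 0.098 and 0.030. NOP2, an RNA methyltransferase, and NOP16 were at -0.027 and -0.026. RRS1 stood apart by its vehicle: it read 6.89 and 7.01 with DMSO and C646 at 6 h, and 6.24 and 6.26 at 24 h. The vehicle difference of -0.65 was the largest of the list, and the C646 arrays moved with it. Of 36 other large subunit factors, MRTO4 fell (-0.66 at 24 h, limma adjusted p = 0.024) and none rose. URB2 was at -0.47, WDR74 at 0.42 and RRP15 at 0.72.

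The RNA exosome, which trims precursor ribosomal RNA, had a median of 0.047 at 24 h over 12 genes. EXOSC8 (-0.83, limma adjusted p = 0.026) and EXOSC9 (-0.64, limma adjusted p = 0.043), subunits of its ring, fell, and EXOSC5 and EXOSC6 were at 0.31, the latter on a probe set numbered away from its gene. Cytosolic ribosomal proteins had a median of 0.064 over 69 genes, with 2 lower and 2 higher in limma. RPL22 (-1.26) and RPL10A (-0.90) were lower on probe sets numbered on other chromosomes, and RPS27L (1.09) and RPL35A (0.54) were higher. Ribosomal protein genes have many near-identical processed copies, and many of the 69 were read on probe sets numbered away from their genes. Single values and the median are therefore uncertain.

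Among regulators, MYC and its partner MAX were above vehicle at both times. The limma estimate at 24 h against both DMSO arrays was 0.41 ± 0.086 for MYC, which lay just outside the threshold. For MAX the estimate was 0.37 ± 0.087 and did not pass. MYC read 5.76 and 6.14 with DMSO and C646 at 6 h, and 5.74 and 6.16 at 24 h, with both C646 arrays above both DMSO arrays. MAX, named after its values were seen, was at 0.21 and 0.39. MXI1, which competes with MYC for MAX, was at 0.33 and 0.50 and rose in limma at 24 h (adjusted p = 0.030), while MXD3 fell (-0.70 at 24 h, adjusted p = 0.025 in limma). MTOR was at 0.22 and -0.13. MDM2, which binds the ribosomal proteins RPL5 and RPL11 when ribosome assembly is disturbed, was 1.48 higher at 24 h (limma adjusted p = 0.012). RPL11 was at 0.15 and RPL5 at 0.11 at 24 h, the latter on a probe set numbered away from its gene.

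All 14 genes of dividing cells were at least 2-fold lower on the same arrays at 24 h, against 2.50% of all probe sets, with a median of -2.12. These 14 were listed with earlier results of these data known. MKI67 was at -0.53 at 6 h and -2.81 at 24 h, and the limma estimate of MCM4 was -2.78 ± 0.13 (adjusted p = 0.0032). Their part in the lower levels of the ribosome biogenesis genes was not tested.

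An effect of C646 common to both times was not found. In limma on all 4 arrays, with time as a term, 0 of the 32 genes and 0 of the 16579 probe sets passed, with 1 of the 32 and 1828 of all at an unadjusted p under 0.05. In limma for C646 at 6 h against both DMSO arrays 0 of the 32 and 0 of all passed, with 3 and 2619 at an unadjusted p under 0.05. The 24 h and 6 h comparisons share both DMSO arrays, and the change between the times could not be tested with 1 array each.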

How the data were processed

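The authors' deposited table holds log2 expression values for 27631 probe sets on 4 Affymetrix Human Exon 1.0 ST arrays, 1 per group. That the scale is log2 follows from the range of the values. Per the labels, 100 ng of total RNA was labelled. The summarisation and normalization are not given in the sources used here, and hg19 comes from the submitters' processing notes. The number of arrays limits the precision.

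Gene names came from the platform annotation, updated by Entrez identifier (GRCh38.p14). It gave 1 symbol for 20429 probe sets (20362 matched), several for 4232 and none for 2970. Probe sets with a mean at or above the 40th percentile were kept (16579), and the probe set with the highest mean stood for a gene. Differences were called at 2-fold. limma 3.58.1 in R 4.3.3 (lmFit, eBayes with trend) fitted all kept probe sets, with Benjamini-Hochberg adjustment at 0.05, and was tested on simulated data. A probe set was in its own place when its 20 nearest numbered neighbours lay mostly on the gene's chromosome, at a median within 3 Mb.

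The members and lists were chosen with earlier results of these data known. All listed genes could be named. Of every other list the 2 highest and 2 lowest at 24 h and any 2-fold gene were named, of dividing-cell genes MKI67 and MCM4, and MYC, MDM2, RPL5 and RPL11 always. MAX was named outside this rule. Alternatives covered the filter, the probe set of a gene, scaling, the control, the fold, the variance trend and leaving out arrays.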

Additional observations from a re-analysis of the deposited data

Results flagged for a closer look

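RRP9 lay above vehicle at 6 h (0.24) and below it at 24 h (-0.22). It was the only listed gene with opposite signs at both times and a size of at least 0.17, which is 2 times the median absolute difference between the DMSO arrays. The difference between the times was not tested, since each is 1 array against 1.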

How the results depend on the processing

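No pairing of replicates was possible because each group has 1 array and the labels give no replicate numbers. Arrays were paired by time only, in the model of both times. With time as a term, as fitted to all arrays, it sets each C646 array against the DMSO array of its time. The fits below that leave out an array had no time term. They set the remaining C646 arrays against the remaining DMSO arrays. The medians over the listed genes moved by less than the median absolute difference between the DMSO arrays (0.084) under each alternative run. The number of genes past the fold at 24 h, 1 lower as reported, was 2 at 1.5-fold and 0 with probe sets in their own place, an alternative chosen after seeing the data; for the vehicle difference it was 1 at 1.5-fold. For C646 at 24 h against both DMSO arrays, no filter left 2 listed genes lower, with 733 of all probe sets lower and 540 higher, where more rows were tested. TCOF1 and NOP56 were called there, and POLR1E, NOLC1, UBTF and RRP1B had limma adjusted p of 0.075, 0.076, 0.075 and 0.079. In the model of both times, leaving out each array gave 0 to 6 listed genes lower, and 0 to 1144 of all probe sets lower and 0 to 1108 higher; the upper values came without the C646 array of 6 h, which leaves a lone C646 array, assumed to vary as the vehicle did, and equals the 24 h comparison.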
